A study of Mus musculus with 22 samples.

Results

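The adhesion genes Dscam, Jam2 and their relatives Dscaml1, Jam3, Ncam1, Sdk1 and Sdk2 were followed in the hippocampus (HIP) and entorhinal cortex (EC) of trisomic and control mice. They are 7 of the 55385 genes of the count table and were taken by symbol from the mouse annotation; 2 of them, Dscam and Jam2, lie in the segment of chromosome 16 that the trisomic mice carry in 3 copies, and 5 lie elsewhere in the genome in the usual 2 copies. The segment spans the distal end of the chromosome, starting at Mir155, and holds 289 genes of the table. RNA was sequenced from 5 wild-type (wt) and 6 Ts66Yah adult males, each giving a HIP and an EC library, that is 22 libraries from 11 mice. Ts66Yah mice, a model of Down syndrome, carry a freely segregating minichromosome with the distal part of mouse chromosome 16, from which the centromeric chromosome 17 material of the parental Ts65Dn minichromosome was deleted with CRISPR/Cas9. The wt mice were control littermates without the minichromosome. All animals shared a mixed B6C3B background, received no treatment that the labels name, and the line descends from a single founder, so that an effect of the additional gene copies cannot be told apart from that of any other change carried on this minichromosome.

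All 7 genes code for membrane proteins with immunoglobulin domains that let cells recognise and hold neighbouring cells. DSCAM and its paralogue DSCAML1 bind copies of themselves across cell contacts and are known for self-avoidance, by which branches of the same neuron or neurons of the same type keep apart, and for the spacing of cell bodies and synaptic layers in the retina. SDK1 and SDK2, the Sidekicks, also bind their own kind and mark synaptic layers of the retina. JAM2 (JAM-B) and JAM3 (JAM-C) are junctional adhesion molecules that bind each other at contacts between endothelial cells and between glial or neuronal cells, and JAM2 on neuronal cell bodies is known to keep oligodendrocytes from wrapping them with myelin. NCAM1, the neural cell adhesion molecule, is the best known of these proteins in neurite outgrowth and synaptic plasticity, and its carriage of polysialic acid changes its binding.

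On the GRCm38 build, Dscam (ENSMUSG00000050272) covers chr16:96590840-97170752 on the minus strand and Jam2 (ENSMUSG00000053062) chr16:84774123-84825928 on the plus strand, near the proximal end of the segment. On chromosome 9 lie Dscaml1 (ENSMUSG00000032087) at chr9:45426628-45753712, Jam3 (ENSMUSG00000031990) at chr9:27097384-27155421 and Ncam1 (ENSMUSG00000039542) at chr9:49502136-49798925. Sdk1 (ENSMUSG00000039683) lies at chr5:141241490-142215586 and Sdk2 (ENSMUSG00000041592) at chr11:113776374-114067046. All are annotated as protein-coding, and reads were counted over their exons.

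Since paralogues can share reads, the longest identical stretch of the coding sequences of each related pair was searched, and these stretches, 5′ to 3′ on the coding strand, are shown because they bound how far a read could be ambiguous:
Dscam and Dscaml1, 21 bases: tactccatcaagtggtacaag
Jam2 and Jam3, 11 bases: tatcgctgtga
Sdk1 and Sdk2, 30 bases: ctggaagggaaccgcctggtgctcacctgc
Each stretch is shorter than the 50-base reads. No 50-base word of Dscam, Dscaml1, Jam2, Jam3 or Sdk1 occurred on the sense strand of another gene's annotated transcripts, and none was shared between any of the 21 pairs of these 7 genes. In Ncam1, 8 of 8787 words (0.091%) and in Sdk2, 12 of 15485 words (0.0775%) also occurred in other genes. On the opposite strand, 29.3% of the words of Jam3 lay in the antisense gene Gm48796, whose count over all libraries was 10.8% of that of Jam3; the strand setting of the counting was not stated, so Jam3 values carry this uncertainty. Gm48796 was counted at 3.06 ± 0.754 CPM (counts per 1 M counts of the library; mean ± SD of 5 mice) in the HIP of wt and 2.74 ± 0.486 (6 mice) in that of Ts66Yah, and at 1.04 ± 0.582 and 1.02 ± 0.288 in their EC. For the other members with an overlapping gene on either strand, that gene had at most 0.226% of the member's count.

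Library totals ranged from 25.9 to 50.1 M counts (median 34.7 M), and every member was counted in every library, from 138 counts for Sdk1 in its shallowest library to 10894 for Ncam1, so that all passed the filter on low counts in each comparison. Levels are given as CPM after TMM scaling over all libraries. The labelled regions were checked with marker lists. The sum of 5 cortical markers was 162 to 178 CPM in wt HIP and 481 to 581 in wt EC, whereas the sum of 5 hippocampal markers was 540 to 631 in wt HIP and 231 to 322 in wt EC. Of the single markers, Wfs1 of the hippocampal list was higher in wt EC (log2 fold change 0.43, adjusted p = 0.00504), and Fezf2 of the cortical list had a log2 fold change of -0.32 from wt HIP to wt EC (adjusted p = 0.0540). No gene of the marker lists was at 0 in a whole group.

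**Figure D1:**
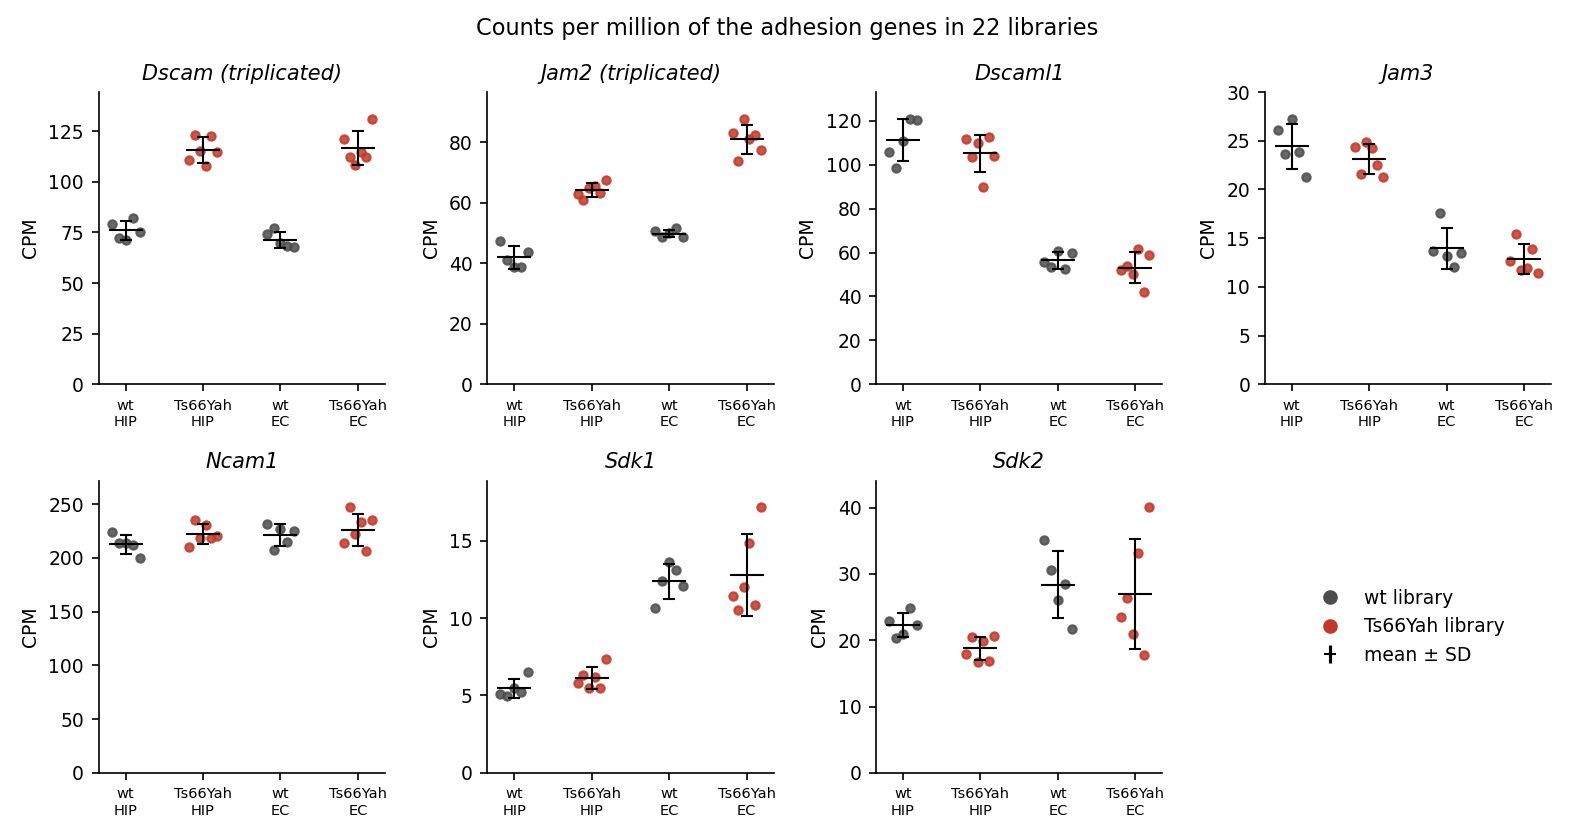
CPM (counts per 1 M counts, linear axis from 0) of each adhesion gene in every library, with wt libraries in grey, Ts66Yah libraries in red and black marks for mean ± SD of 5 wt or 6 Ts66Yah mice. Dscam and Jam2 lie higher in each Ts66Yah group than in wt of the same region with no overlap, whereas the other 5 genes overlap between genotypes, and Dscaml1, Jam3 and Sdk1 separate by region instead.

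The first question was whether the 2 triplicated genes were expressed above wt, and whether their relatives changed with them. Dscam and Jam2 rose in both regions of Ts66Yah mice by about the size of the copy number change, and none of the 5 relatives in 2 copies passed the test in either region. Across all tested genes, the adjusted p of edgeR was under 0.05 for 0.591% of 18452 genes in the HIP and 0.283% of 17658 genes in the EC, against 2 of 7 adhesion genes in each. These 2 were the triplicated genes, and the contrast says nothing of adhesion genes as a class. The share called among the genes of the segment is not given here.

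Dscam, the founding member of the self-avoidance receptors, stood at 79.2, 72.1, 71.5, 82.4 and 75.3 CPM in the HIP of wt replicates 1 to 5. In the HIP of the 6 Ts66Yah mice its level ranged from 108 to 123 CPM with a median of 115. Every Ts66Yah library lay above every wt library, and the lowest Ts66Yah value exceeded the highest wt value by more than the range of either group. The log2 fold change was 0.61 (SE 0.0505; 95% confidence interval 0.50 to 0.71, or 1.41- to 1.64-fold) with an adjusted p of 1.53e-05 in edgeR's quasi-likelihood test. In the EC, wt replicates 1 to 5 had 74.2, 77.0, 69.8, 68.4 and 67.6 CPM. The 6 Ts66Yah EC libraries ranged from 109 to 131 with a median of 114 CPM. The groups again did not overlap, replicate 6 being the highest Ts66Yah library. The EC log2 fold change was 0.71 (SE 0.0624; 95% interval 0.57 to 0.84, or 1.49- to 1.79-fold; adjusted p = 0.000163). In bulk tissue, more cells that express a gene and more RNA per cell cannot be told apart, here or in the results that follow.

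Jam2, the triplicated junctional adhesion molecule, had 47.4, 41.0, 38.7, 38.7 and 43.7 CPM in the HIP of wt replicates 1 to 5, and 60.9 to 67.6 CPM with a median of 64.0 in Ts66Yah HIP. All 6 trisomic libraries exceeded all 5 wt libraries, although wt replicate 1 stood above the other wt mice. The log2 fold change was 0.62 (SE 0.0566; 95% interval 0.49 to 0.74, or 1.41- to 1.67-fold; adjusted p = 3.86e-05). In the EC, the wt libraries lay close together at 50.5, 48.6, 49.9, 51.5 and 48.6 CPM. The Ts66Yah EC libraries ranged from 73.8 to 87.8 with a median of 81.7 CPM. There was no overlap, and the EC log2 fold change was 0.70 (SE 0.0555; 95% interval 0.58 to 0.82, or 1.49- to 1.76-fold; adjusted p = 9.08e-05). Dscam and Jam2 were also the only members whose CPM did not overlap between genotypes, in each region, where 1.87% of all tested HIP genes and 0.957% of EC genes showed no overlap. Both genes kept an adjusted p under 0.05 in 20 of 20 alternative fits per region.

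**Figure D2:**
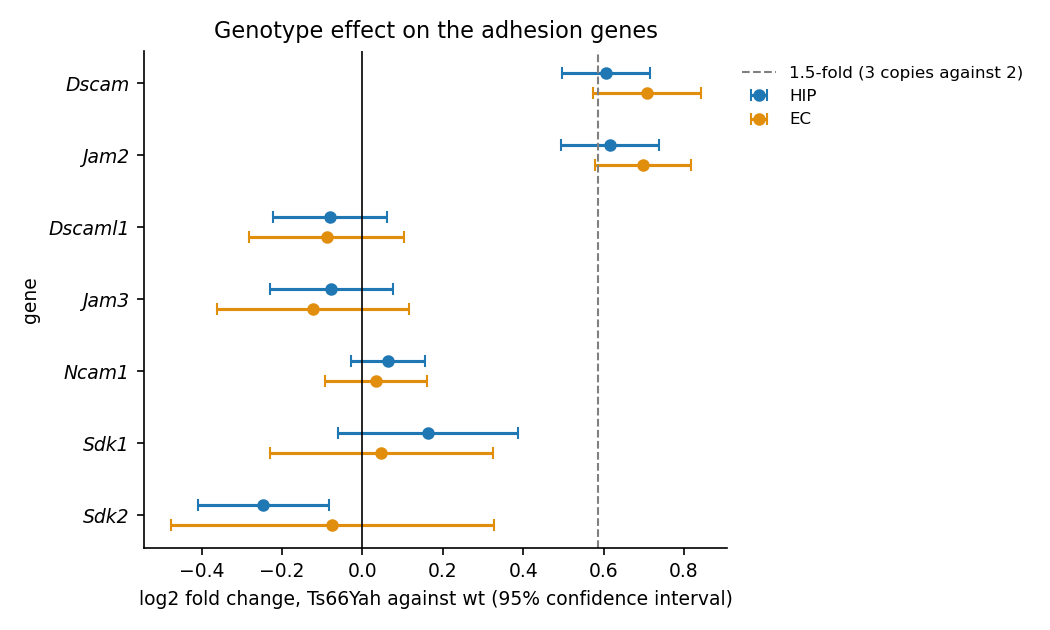
Log2 fold change of Ts66Yah against wt with its 95% confidence interval from edgeR, for the HIP (blue) and the EC (orange); the solid line marks no change and the dashed line 1.5-fold. The intervals of Dscam and Jam2 lie above 0 and include 1.5-fold in both regions, and those of the other genes include 0 except for Sdk2 in the HIP, whose adjusted p was 0.211.

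Among the relatives in 2 copies, Dscaml1, the DSCAM paralogue, was at 98.7 to 121 CPM in wt HIP and 90.0 to 113 in Ts66Yah HIP, with a log2 fold change of -0.08 (95% interval -0.22 to 0.06; adjusted p = 0.687). Jam3, the binding partner of JAM2, was at 21.3 to 27.3 CPM in wt HIP and 21.3 to 24.9 in Ts66Yah HIP, with -0.08 (95% interval -0.23 to 0.08; adjusted p = 0.720). Neither paralogue of the triplicated genes differed beyond its spread, and in the EC the intervals were -0.28 to 0.10 for Dscaml1 and -0.36 to 0.12 for Jam3. In wt EC, replicate 2 had the highest Jam3 level of its group, 17.6 CPM against 12.0 to 13.7 in the others. The same library had the highest wt EC sum of the 5 oligodendrocyte markers (3292 CPM, with the lowest at 1295). Over the 11 mice, each genotype centred on its mean, Jam3 and this marker sum had a Pearson's r of 0.71 in HIP (permutation p = 0.0176, adjusted p = 0.228; Spearman's rho 0.682, permutation p = 0.0253) and 0.681 in EC (permutation p = 0.0212, adjusted p = 0.238; rho 0.70, permutation p = 0.0201). Neither passed the adjustment over 168 relations, and without the 2 mice farthest from the median of the sum r was 0.522 and 0.31. This marker list was picked after values had been seen, and others had an r of like size with Jam3 in the EC. It was -0.744 for oligodendrocyte precursor markers (permutation p = 0.00898, adjusted p = 0.201), against 0.332 in the HIP. For choroid plexus and microglia markers it was 0.598 and -0.571 in the EC, and none of these passed. Without wt EC replicate 2 the EC log2 fold change of Jam3 was -0.03 (adjusted p = 0.991). Ncam1 was the most abundant member by count, at 200 to 224 CPM in wt HIP and 210 to 236 in Ts66Yah HIP. Its log2 fold change was 0.06 in the HIP (95% interval -0.03 to 0.15; adjusted p = 0.601) and 0.03 in the EC (95% interval -0.09 to 0.16; adjusted p = 0.981), the tightest bounds of the 5 relatives.

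The Sidekicks had the lowest levels per exon length, given further on, and Sdk1 also the lowest counts. Sdk1 was at 4.94 to 6.52 CPM in wt HIP and 5.46 to 7.35 in Ts66Yah HIP, a log2 fold change of 0.16 (95% interval -0.06 to 0.39; adjusted p = 0.579). In the EC it was at 10.6 to 13.6 CPM in wt and 10.6 to 17.2 in Ts66Yah, a log2 fold change of 0.05 (95% interval -0.23 to 0.32; adjusted p = 0.990). Sdk2 came nearest to a change among the relatives. In the HIP, wt replicates 1 to 5 had 23.0, 20.4, 21.0, 24.9 and 22.4 CPM, and the Ts66Yah libraries ranged from 16.7 to 20.7 with a median of 18.9. The 2 highest Ts66Yah libraries lay within the wt range, and the log2 fold change of -0.25 (SE 0.0759; 95% interval -0.41 to -0.08; unadjusted p = 0.00584) had an adjusted p of 0.211, so that it did not pass. Over 20 alternative fits this adjusted p ranged from 0.0870 to 0.690. In the EC, Sdk2 spread widely for its level, from 21.7 to 35.2 CPM in wt and from 17.8 to 40.1 in Ts66Yah. Ts66Yah replicates 4 and 6 were the highest there for both Sdk2 (33.1 and 40.1 CPM) and Sdk1 (14.9 and 17.2 CPM), and the log2 fold change of Sdk2 was -0.08 (95% interval -0.48 to 0.33; adjusted p = 0.989).

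The next question was whether the 2 triplicated genes followed their copy number exactly. With 3 copies against 2, a level set by copy number alone is 1.5-fold, or 0.585 on the log2 scale. The difference from it was 0.02 for Dscam (95% interval -0.09 to 0.13) and 0.03 for Jam2 (95% interval -0.09 to 0.15) in the HIP, with p adjusted over the segment genes of 0.838 and 0.799. In the EC it was 0.12 for Dscam (95% interval -0.01 to 0.26) and 0.11 for Jam2 (95% interval -0.00 to 0.23), with an adjusted p of 0.390 for each. Neither gene departed from 1.5-fold in a region, where 5.94% of 101 segment genes tested in HIP and 1.08% of 93 tested in EC did. Over 20 alternatives the EC difference ranged from 0.09 to 0.16 for Dscam and from 0.09 to 0.14 for Jam2, on the upper side throughout. These alternatives refit the same libraries or most of them, so their shared sign is no separate evidence.

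Whether the genotype effect differed between the regions was tested over all 22 libraries, with no term for the mouse. The EC effect minus the HIP effect was 0.10 for Dscam (95% interval -0.06 to 0.27) and 0.08 for Jam2 (95% interval -0.07 to 0.24) on the log2 scale, each with an adjusted p of 1. For the other 5 genes it ranged from -0.11 for Sdk1 to 0.17 for Sdk2, whose interval was the widest (-0.27 to 0.62). By this edgeR test 0.0% of 19074 genes differed, with 388 genes at an unadjusted p under 0.05, and DESeq2 and limma voom also called 0 genes.

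Because JAM2 binds JAM3, and Dscam and Dscaml1 are paralogues, the read-count ratio of each pair was taken within each library, where library size cancels. The ratio of Jam2 to Jam3 was 0.78 ± 0.196 on the log2 scale in wt HIP (SD, n = 5) and 1.47 ± 0.108 in Ts66Yah HIP (SD, n = 6). In wt HIP it ranged from 0.50 to 1.03 and in Ts66Yah HIP from 1.37 to 1.67, without overlap. The shift of 0.69, or 1.62-fold, gave p = 0.004329 in a two-sided exact permutation test, the smallest value that the 462 arrangements allow. In the EC the ratio was 1.85 ± 0.232 in wt and 2.66 ± 0.227 in Ts66Yah, a shift of 0.82 (1.76-fold; exact permutation p = 0.004329). Thus the counts leaned further to Jam2 in trisomic mice of both regions, with no overlap in the EC either (1.47 to 2.10 against 2.26 to 2.91). The ratio of Dscam to Dscaml1 went from -0.55 ± 0.111 to 0.14 ± 0.104 in the HIP, a shift of 0.69 (1.61-fold), and from 0.34 ± 0.150 to 1.14 ± 0.175 in the EC, a shift of 0.80 (1.75-fold). Both had an exact permutation p of 0.004329, which was also the Benjamini-Hochberg value over the 4 tests, and again the genotypes did not overlap. These ratios carry the triplicated genes' own rise and are not independent of it.

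The labels number the animals, and the numbers fall into a low and a high range, each with 2 wt mice; wt replicate 1 falls in neither. Within the low range (2 wt and 2 Ts66Yah) the Jam2 to Jam3 shift was 0.93 (HIP) and 0.97 (EC), and within the high range (2 wt and 4 Ts66Yah) it was 0.55 and 0.68. For Dscam to Dscaml1 it was 0.67 and 0.92 in the low range, and 0.76 and 0.79 in the high range. The direction was thus the same within both ranges, where exact permutation tests cannot go below p = 0.3333 and 0.1333.

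The Sidekick pair, in 2 copies in all mice, was added after its values had been seen. Its Sdk1 to Sdk2 ratio was -2.04 ± 0.189 in wt HIP and -1.62 ± 0.0704 in Ts66Yah HIP on the log2 scale. The ranges, -2.26 to -1.78 and -1.69 to -1.49, did not overlap, and the shift of 0.41 (1.33-fold) had an exact permutation p of 0.004329, or 0.005195 adjusted over the 6 ratio tests. This adjustment does not cover the choice of the pair after its values were seen, and neither gene alone passed the edgeR test. In the EC the ratio was -1.18 ± 0.350 in wt and -1.04 ± 0.238 in Ts66Yah, with a shift of 0.14 (exact permutation p = 0.4632). Whether the HIP and EC shifts differed was not tested. Within the low and high ranges of animal numbers the HIP shift was 0.43 and 0.36.

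**Figure D3:**
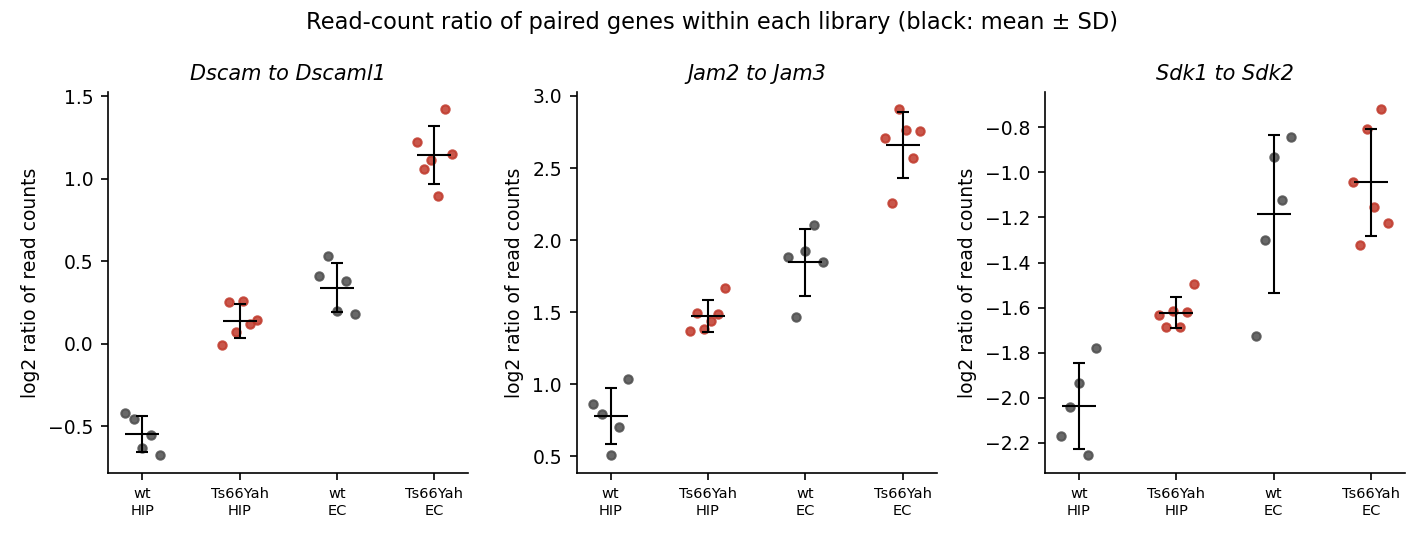
Log2 ratio of the read counts of paired genes within each library, for the groups named on the horizontal axis; points are libraries (grey wt, red Ts66Yah) and black marks give mean ± SD of 5 or 6 mice. The ratios of Dscam to Dscaml1 and of Jam2 to Jam3 lie higher in Ts66Yah without overlap in both regions. That of Sdk1 to Sdk2, a pair added after its values had been seen, lies higher without overlap in the HIP.

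The regions were then compared within each genotype, with no term for the mouse in the main fits. Of the 7 genes, 5 differed between EC and HIP in wt and in Ts66Yah mice, Dscaml1 and Jam3 being lower and Sdk1, Sdk2 and Jam2 higher in the EC, whereas Dscam and Ncam1 did not pass. Such differences were common, since edgeR called 47.7% of 17935 genes in wt and 54.0% of 18043 in Ts66Yah. No overlap between the regions was found for 4 members (Dscaml1, Jam2, Jam3 and Sdk1) in each genotype, against 35.4% of all tested genes in wt and 32.2% in Ts66Yah.

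Dscaml1 had 106, 98.7, 111, 121 and 120 CPM in the HIP of wt replicates 1 to 5 and 55.7, 53.2, 60.9, 52.6 and 59.7 in their EC. Every EC value lay below every HIP value, and the log2 fold change of EC against HIP was -0.98 (95% interval -1.13 to -0.82; adjusted p = 2.87e-07). In Ts66Yah it was -0.99 (95% interval -1.17 to -0.81; adjusted p = 2.02e-07). Sdk1 went the other way. It had 5.10, 4.94, 5.49, 5.21 and 6.52 CPM in wt HIP and 10.6, 12.4, 13.6, 13.1 and 12.1 in wt EC. All EC libraries exceeded all HIP libraries, with log2 fold changes of 1.18 in wt (95% interval 0.96 to 1.41; adjusted p = 1.39e-06) and 1.06 in Ts66Yah (95% interval 0.79 to 1.33; adjusted p = 6.11e-06). Dscaml1 and Sdk1 thus had the largest regional differences of the 7 genes in both genotypes by point estimate, in opposite directions.

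Jam3 had 26.1, 23.6, 27.3, 23.8 and 21.3 CPM in wt HIP and 13.7, 17.6, 13.2, 12.0 and 13.5 in wt EC. Its log2 fold change was -0.80 in wt (95% interval -1.03 to -0.58; adjusted p = 3.97e-05) and -0.86 in Ts66Yah (95% interval -1.02 to -0.69; adjusted p = 4.27e-07). Jam2, its partner, was higher in the EC, with 0.25 in wt (95% interval 0.11 to 0.40; adjusted p = 0.00729) and 0.33 in Ts66Yah (95% interval 0.23 to 0.43; adjusted p = 3.42e-05). The 2 partners thus differed between regions in opposite directions, and without wt replicate 2 the wt value of Jam3 was -0.91 (adjusted p = 3.11e-05). Sdk2 was higher in the EC by 0.35 in wt (95% interval 0.11 to 0.60; adjusted p = 0.0210) and 0.52 in Ts66Yah (95% interval 0.18 to 0.86; adjusted p = 0.0133), with overlapping libraries. The wt call was lost without wt replicate 1, 2 or 3 (adjusted p = 0.0741, 0.0927 and 0.0539) and with all 22 libraries in a single fit (0.0724). Dscam differed by -0.09 in wt (95% interval -0.22 to 0.04) and 0.01 in Ts66Yah (95% interval -0.10 to 0.12), and Ncam1 by 0.06 (95% interval -0.06 to 0.18) and 0.02 (95% interval -0.08 to 0.13).

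**Figure D4:**
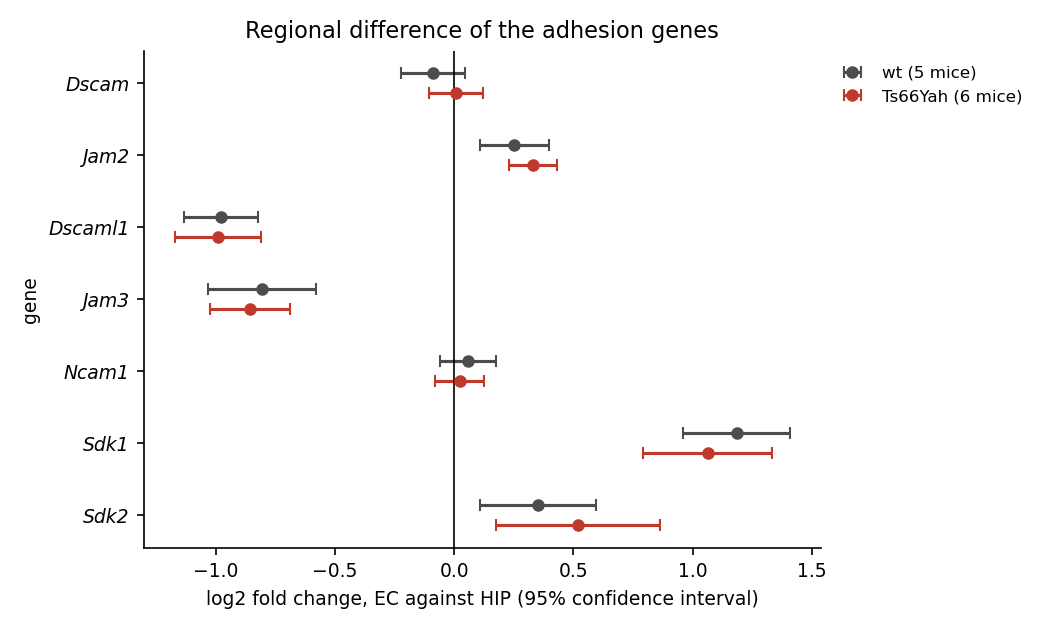
Log2 fold change of EC against HIP with its 95% confidence interval from edgeR, in wt (grey, 5 mice) and Ts66Yah (red, 6 mice); the line marks no difference. Dscaml1 and Jam3 lie below 0, Sdk1, Sdk2 and Jam2 above 0, and the intervals of Dscam and Ncam1 include 0 in both genotypes.

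Markers of other cell types moved between the regions as well. All 5 oligodendrocyte markers were lower in the EC of wt, with sums of 6822 to 9975 CPM in wt HIP and 1295 to 3292 in wt EC, and of 6975 to 9117 and 1531 to 2719 in Ts66Yah. All 4 choroid plexus markers were lower too, with sums of 113 to 3302 CPM in wt HIP, 779 to 2844 in Ts66Yah HIP, 9.60 to 43.2 in wt EC and 9.75 to 15.9 in Ts66Yah EC. In wt, higher markers in the EC were 4 of 8 endothelial, 4 of 4 microglial, 3 of 4 neuronal, 2 of 5 interneuron, 1 of 2 oligodendrocyte precursor and 3 of 4 striatal markers. Of 5 astrocyte markers 2 were higher and 1 lower, and of 4 meningeal and fibroblast markers 2 were higher and 1 lower. The sums of the 8 endothelial markers, cells in which JAM2 and JAM3 are known, were 204 to 222 CPM in wt HIP and 230 to 277 in wt EC, and in Ts66Yah 208 to 250 and 208 to 302. The part of these cell types in the regional differences of the adhesion genes was not tested. Between genotypes, no gene of the 12 marker lists passed the test in either region. In the HIP, 0 of 5 cortical markers had a positive log2 fold change, and 2 of the 5 had an unadjusted p under 0.05 in edgeR. The sum of the cortical markers was 162 to 178 CPM in wt HIP and 125 to 182 in Ts66Yah HIP. Of 5 hippocampal markers in the HIP 3 were positive, and 1 had an unadjusted p under 0.05 in edgeR. Among 5 interneuron markers 3 were positive and 3 had such a p. The latter were Sst (-0.51), Pvalb (-0.31) and Gad2 (0.21). Endothelial markers in the HIP were positive for 7 of 8, with 2 at such a p. Microglia markers were positive for 0 of 4 in each region, with 1 at such a p in each. The part of these marker values in the genotype values of the adhesion genes was not tested.

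Levels of different genes were compared per kilobase of annotated exon (RPKM) in wt. In wt HIP, Ncam1 was highest at 24.5 ± 0.998 RPKM, followed by Dscaml1 at 12.5 ± 1.07 (SD, n = 5). Dscam at 8.65 ± 0.532, Jam3 at 7.64 ± 0.725 and Jam2 at 6.93 ± 0.614 came next and overlapped from neighbour to neighbour. Sdk2 at 1.44 ± 0.115 and Sdk1 at 0.492 ± 0.0567 were lowest, each separate from its neighbour in the order. In wt EC, Ncam1 stood at 25.5 ± 1.17 RPKM, Jam2 at 8.24 ± 0.210 and Dscam at 8.11 ± 0.459, the latter pair overlapping. Dscaml1 at 6.33 ± 0.421, Jam3 at 4.37 ± 0.657, Sdk2 at 1.84 ± 0.326 and Sdk1 at 1.12 ± 0.103 followed, and none of these overlapped its neighbour. By the union of exons, Dscaml1 stood above Dscam in the HIP and below it in the EC. This order depended on the length used. With the longest annotated transcript, Dscaml1 at 8.19 RPKM and Dscam at 8.17 were level in wt EC, and Jam3 had 12.6 RPKM in wt HIP, above Jam2 at 9.59 and Dscam at 8.71.

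To see whether the partners and kin of these proteins moved with them, 6 lists of related genes were examined. They held 91 gene identifiers, Igsf5 being entered under both of its own, with 84 tested in the HIP and 83 in the EC. None of them passed the test between genotypes in either region by edgeR, beside the 0.591% and 0.283% of all genes given above. At an unadjusted p under 0.05 stood 9 of the 84 related genes in HIP, beside 2188 of all 18452 genes, and 4 of the 83 in EC, beside 1103 of 17658. limma voom also called none, and DESeq2 called 1, Cadm4 in the HIP. The median log2 fold change of the 82 tested genes outside the segment was 0.02 in the HIP, and that of the 83 in the EC was 0.02, beside 0.00 and -0.00 over all genes tested.

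Of the JAM and CTX family (9 genes, 6 tested in each region; median log2 fold change 0.04 in the HIP and 0.00 in the EC), Clmp, an adhesion molecule related to the coxsackievirus receptor, had 0.19 in the HIP (95% interval -0.00 to 0.39) and 0.21 in the EC (95% interval -0.23 to 0.65). Cxadr, that receptor, lies on chromosome 16 but outside the triplicated segment (chr16:78301489-78359774), and had -0.05 in the HIP and 0.02 in the EC. It was picked after its values had been seen, as was Ncam2 (chr16:81200697-81626828), the relative of Ncam1 on the same side of the segment, with 0.08 and 0.14. Both had an adjusted p above 0.8. Jaml, a leukocyte relative, had 0.22 in the EC (95% interval -0.47 to 0.91) at under 1 CPM.

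Of the 20 partners of JAM proteins at junctions (median 0.01 in each region), Mpdz, a scaffold with many PDZ domains, had the smallest p in the HIP. It stood at 79.3 ± 2.60 CPM in wt and 89.2 ± 8.07 in Ts66Yah, a log2 fold change of 0.17 (95% interval 0.04 to 0.30; adjusted p = 0.265). Magi1, another PDZ scaffold, had 0.15 in the HIP (95% interval -0.00 to 0.30). In the EC, the polarity genes Pard6b and Pard6g had 0.28 (95% interval 0.04 to 0.53; adjusted p = 0.725) and -0.22 (95% interval -0.50 to 0.06). The values of these partners differed in sign between genes and did not pass.

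Of the 15 partners of DSCAM and the Sidekicks (median 0.07 in the HIP and 0.04 in the EC), Ntn1, the guidance cue netrin-1 that DSCAM can bind, had 10.4 ± 0.523 CPM in wt HIP and 12.0 ± 0.957 in Ts66Yah HIP, a log2 fold change of 0.20 (95% interval 0.05 to 0.36; adjusted p = 0.284). Dlg2, a postsynaptic scaffold, had 0.13 in the HIP (95% interval 0.02 to 0.25; adjusted p = 0.345). In the EC, Slit2, a repellent guidance cue, had means of 51.2 CPM in wt and 63.1 in Ts66Yah (log2 fold change 0.30, 95% interval 0.10 to 0.50; adjusted p = 0.491), and the netrin receptor Dcc had 0.26 (95% interval -0.06 to 0.57). The sign was positive for 13 of these 15 genes in HIP and 12 in EC, with no gene past the test.

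Of the NCAM partners and polysialylation genes (12 genes, 11 tested; median 0.05 in HIP and 0.01 in EC), the growth factor receptor Fgfr1 had 0.14 in the HIP (95% interval 0.04 to 0.23; adjusted p = 0.237) and the kinase gene Fyn 0.07 (95% interval -0.02 to 0.15). In the EC, Gfra1, a receptor of the GDNF family, had 0.25 (95% interval -0.12 to 0.61) and the polysialyltransferase gene St8sia4 0.10 (95% interval -0.12 to 0.31). None passed.

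Of the 33 neural adhesion genes of the immunoglobulin superfamily (median -0.00 in the HIP and 0.04 in the EC), Cadm4, a glial and axonal adhesion molecule, had 200 ± 17.7 CPM in wt HIP and 164 ± 17.4 in Ts66Yah HIP. Its log2 fold change of -0.29 (95% interval -0.45 to -0.12) had an adjusted p of 0.152 in edgeR and 0.0359 in DESeq2. L1cam, an axonal adhesion molecule, had 0.12 in the HIP (95% interval 0.00 to 0.23; adjusted p = 0.406). In the EC, Nrcam, of the same family as L1cam, had 0.15 (95% interval 0.01 to 0.29; adjusted p = 0.736) and Igsf9 had -0.35 (95% interval -0.68 to -0.02; adjusted p = 0.764).

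The segment holds 6 further listed identifiers of junction and adhesion genes, 2 of them of Igsf5, and they were barely expressed. Igsf5, a junction protein gene of the JAM group listed under 2 identifiers, had 2 to 25 counts in wt HIP and 17 to 40 in Ts66Yah HIP under the first and 0 in every library under the second. Its fitted log2 fold change in the HIP was 0.88 (95% interval 0.05 to 1.70; adjusted p = 0.389), and that of the claudin gene Cldn14 was 0.57 (95% interval -0.20 to 1.34; adjusted p = 0.574). Cldn8, Cldn17 and Itgb2l had at most 12 counts in a library and were not tested, and none of the 6 identifiers was tested in the EC. Dscam and Jam2 were thus the members of these families in the segment with levels above 1 CPM.

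**Figure D5:**
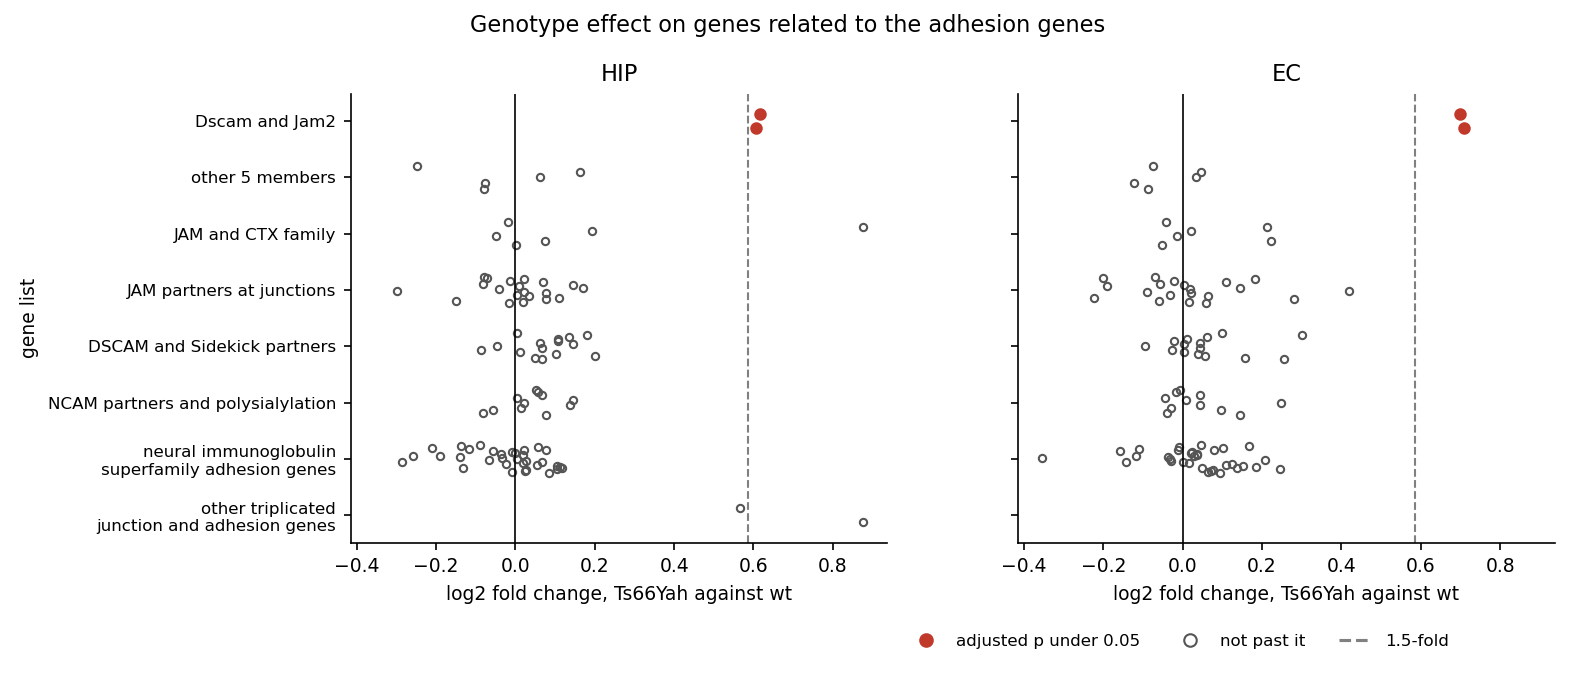
Log2 fold change of Ts66Yah against wt for Dscam and Jam2, the other 5 members and the tested genes of 6 related lists, in the HIP (left) and EC (right); each circle is a gene, filled red where the adjusted p of edgeR was under 0.05, and genes on 2 lists appear in both. The dashed line marks 1.5-fold, and only Dscam and Jam2 are filled.

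Between the regions, 65.5% of 84 related genes in wt and 68.2% of 85 in Ts66Yah passed, beside the 47.7% and 54.0% of all genes given above. In wt, 37 were higher and 18 lower in the EC, with a median log2 fold change of 0.20 beside 0.01 over all genes. Among called genes averaging at least 1 CPM, the largest differences in wt were those of Cntn6, a contactin (2.00), and of Gap43, a growth cone protein (1.79), toward the EC, and of Mdga1, a regulator of synaptic adhesion (-1.65), and Mcam, an adhesion molecule of vessel walls (-1.65), toward the HIP. In Ts66Yah they were Cntn6 (2.26) and Igsf21, a synaptic adhesion gene (1.74), toward the EC, and Mcam (-1.65) and Fgfr1 (-1.53) toward the HIP, all with an adjusted p under 0.05. Below that level, the junction scaffold gene Tjp3, named after its values were seen, had -2.77 in wt and -2.06 in Ts66Yah (adjusted p = 2.01e-05 and 2.43e-05).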

How the data were processed

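The authors deposited raw read counts per gene for 22 libraries, made per the labels from stranded, poly(A)-selected RNA and, by the study's methods, from single-end 50-base reads mapped with Hisat2 to GRCm38 and counted with HTSeq-count on Ensembl genes; the methods name both polyA RNA and a ribosomal depletion kit, the strand setting and the versions of Hisat2 and HTSeq-count are not given in the sources used here, and the submitters' processing notes list bcl2fastq 2.17.1.14. Tables of the authors' own DESeq2 and FCROS comparisons were not used. All columns were mapped to samples by their labels.

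Gene symbols and exons came from GENCODE on GRCm38, a release older than the Ensembl annotation used for counting (55144 of 55385 identifiers matched). Each comparison was fitted over all genes passing filterByExpr with edgeR 4.0.16 (R 4.3.3; TMM, quasi-likelihood test, Benjamini-Hochberg over all tested genes, threshold 0.05), with 95% intervals. Departure from 1.5-fold added log(1.5) to the Ts66Yah offsets of segment genes. Ratios were tested by two-sided exact permutation (scipy 1.17.1). RPKM used the union of exons. Alternatives were DESeq2 1.42.0, limma voom 3.58.1, RLE factors, TMM without segment genes, other filters (none, or at least 1 CPM in at least 5 libraries), a fit of all libraries, blocks by replicate number or range of animal numbers, another transcript length, and leaving out each mouse. The scripts were tested on simulated data.

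The members and lists were chosen with earlier results of these data known. Every member is given in each comparison. Of the related lists, each gene past the threshold between genotypes is named, or else the 2 of each list with the smallest p; between regions, the 2 with the largest change in each direction among called genes averaging at least 1 CPM, and for likeness of pattern to Dscam the 3 genes with the highest correlation; the same for Jam2 is not reported here.

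HIP and EC libraries with the same number come from the same mouse. Their deviations from the group means correlated at 0.154 to 0.619 in wt and 0.19 to 0.475 in Ts66Yah, so the numbers pair the regions. The differences between libraries of 1 group exceeded sampling noise (chi-square per gene at least 9.62), and within a region each mouse was counted as a replicate. The main fits between regions and of genotype by region had no term for the mouse. Their p and intervals thus treat the HIP and EC libraries of a mouse as independent. The replicate block added the mouse to these fits.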

Additional observations from a re-analysis of the deposited data

Results flagged for a closer look

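Of 40 groups of libraries examined, 1 held a library far from the others. The Sdk1 to Sdk2 log2 ratio of Ts66Yah HIP replicate 6 was -1.49, the highest of 6, and its gap to the next library was 0.63 of the group's range. The other 5 Ts66Yah HIP libraries lay at or above -1.69. Chance marks about 1 in 20 such groups. The library with this ratio also had the highest Sdk1 level of its group, 7.35 CPM.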

How the results depend on the processing

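Dscam and Jam2 passed the test between genotypes under all 20 alternatives in each region and the other 5 members under none. Counts of related genes called between genotypes were 0 under each alternative but DESeq2 in the HIP, with 1. Fits without a mouse in turn gave 4 to 5 members called between regions in wt (Sdk2 was lost without wt replicate 1, 2 or 3). The replicate number does not pair wt with Ts66Yah: same-numbered libraries correlated at -0.08 to 0.20 in the HIP and -0.11 to 0.49 in the EC, with 2 of 5 libraries in each matching their own number best. With the replicate block, 2 members were called between genotypes in each region, 0 for the departure from 1.5-fold and for genotype by region, and 5 between regions in each genotype; 61 genes in place of 109 were called over the whole HIP table and 39 in place of 50 in the EC. Between regions the block gave 62 and 64 related genes in wt and Ts66Yah.

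Over replicate pairs (an exact sign-flip test, which cannot go below p = 0.0625), the shift of Jam2 to Jam3 was 0.65 (HIP) and 0.80 (EC), that of Dscam to Dscaml1 0.69 and 0.80, and that of Sdk1 to Sdk2 0.39 and 0.18. Within the low range of animal numbers (smallest p 0.3333) the shifts of Jam2 to Jam3 were 0.93 and 0.97, those of Dscam to Dscaml1 0.67 and 0.92, and that of Sdk1 to Sdk2 in the HIP 0.43. Within the high range (smallest p 0.1333) they were 0.55 and 0.68, 0.76 and 0.79, and 0.36, and that of Sdk1 to Sdk2 in the EC turned to -0.10. Designs this small cannot pass the threshold.

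With the longest annotated transcript as length, RPKM in wt HIP and wt EC were 16.2 and 8.19 for Dscaml1, 9.59 and 11.4 for Jam2, 12.6 and 7.19 for Jam3, 32.4 and 33.7 for Ncam1, and 1.98 and 2.52 for Sdk2, since that transcript is shorter than the union of exons.

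Signs turned only for values near 0 that did not pass. The EC genotype effect of Sdk1 became -0.0583 with the replicate block and ranged from -0.0517 to 0.096 without a mouse, and that of Sdk2 became 0.0522 with a block for the animal number range and ranged from -0.2194 to 0.0235. The genotype by region value of Dscaml1 became 0.0045 without a filter. Without a mouse it ranged from -0.0978 to 0.0724 for Dscaml1, -0.1207 to 0.066 for Jam3 and -0.0497 to 0.0008 for Ncam1. The EC against HIP value of Dscam in Ts66Yah became -0.0051 with the 1 CPM filter and ranged from -0.0279 to 0.0386 without a mouse, and its departure in the HIP from -0.0005 to 0.0511. The cause of these changes was not tested.

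Depth did not limit the abundant members, but Sdk1, with 138 to 569 counts, and the triplicated claudins were measured less precisely. The labels give no litter, batch or date, and the study's methods name both polyA RNA and ribosomal depletion.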

Other observations

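Within a region, after each genotype's mean was removed, the log2 CPM of the 7 genes was correlated among themselves over 11 mice (42 relations in both regions together), and none passed the Benjamini-Hochberg threshold. Of 168 relations with the sums of the 12 marker lists, 1 passed by Pearson's r and 0 by Spearman's rho. In the HIP, Sdk2 followed the sum of the 4 neuron markers with Pearson's r of 0.898 (permutation p = 0.00026, adjusted p = 0.0437) and Spearman's rho of 0.882 (permutation p = 0.00062, adjusted p = 0.0958). Without the 2 mice farthest from the median of the marker sum, r was 0.86. For the same relation in the EC, r was 0.046 (permutation p = 0.893) and rho 0.109. Sdk1 had an r of 0.664 with the neuron marker sum in the HIP (permutation adjusted p = 0.262). Its rho was 0.855 (permutation adjusted p = 0.0958), and without the 2 farthest mice its r was 0.94. In the EC, Dscam ran against the sum of the endothelial markers with r of -0.847 (permutation adjusted p = 0.0563) and rho of -0.864 (permutation adjusted p = 0.0958), which did not pass. In the HIP the r of Dscam with this sum was -0.155. The EC relation was particular neither to these markers nor to Dscam. There Dscam had an r of -0.743 with astrocyte, -0.729 with hippocampal and -0.724 with microglia markers. With meningeal and fibroblast markers it was -0.638, and with choroid plexus markers 0.692. Sdk2 had an r of -0.82 with the endothelial sum in the EC, and none of these passed. These relations were chosen after values had been seen.

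Over all 22 libraries, with each group's mean removed, the genes whose log2 CPM was most like that of Dscam, among 11514 genes outside the segment averaging at least 5 CPM, were Unc13a, a gene of synaptic vesicle priming (Pearson's r 0.812), Cacna1a, a calcium channel subunit (0.798), and Zfpm2 (0.796). The points share library preparation and depth, and the values are a description.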
